A study of Mus musculus with 10 samples.

Results

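The genes described here mostly encode enzymes and subunits that methylate, demethylate, deacetylate or remodel chromatin. The names also take in Setd3, an enzyme of actin, and Smarca5-ps, a pseudogene copy of Smarca5. They were chosen by name, as genes of the Kdm, Setd, Chd, Smarc and Hdac families whose mean deposited RPKM (read density scaled to transcript length and library size) over the 2 WT inputs was at least 1. Of 30419 genes in the files, 61 carried such a name and 55 met the minimum, against 11306 of all genes. The 55 members were 14 Kdm, 9 Setd, 10 Chd, 13 Smarc and 9 Hdac genes. Just inside the minimum lay Hdac10 at 1.19 RPKM, Chd5 at 1.29 RPKM and Smarcd3 at 1.48 RPKM. Just outside lay Kdm8 at 0.934 RPKM and Hdac7 at 0.471 RPKM. The other names left out were Smarca2, Kdm5d, Hdac9 and Kdm4d, all between 0.0700 and 0.190 RPKM.

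The RNA came from J1 cells, a feeder-free line of mouse embryonic stem cells. It was fragmented, precipitated (IP) with a rabbit polyclonal antibody against N6-methyladenosine (m6A) and sequenced beside unprecipitated input RNA. There were 2 Mettl3 KO IPs with 2 KO inputs, 2 Mettl3 WT IPs with 2 WT inputs, and a single first IP with its input from J1 cells whose genotype the labels do not give. The labels name no time point or drug for any group, and they state neither the exons removed in KO cells nor how many clones were used. Nothing in the labels says that replicates were separate cultures, so p-values measure library-to-library spread, which could be purely technical.

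Mettl3 is the catalytic subunit of the nuclear complex that places m6A on messenger RNA. The mark is known to lie mostly near stop codons and in long internal exons, and in stem cells it is linked to faster decay of transcripts. Histone lysine methylation is written by SET-domain enzymes such as the Setd proteins and removed by lysine demethylases, the Kdm proteins. The Chd and Smarc proteins include ATPases that slide or evict nucleosomes, with their partner subunits, and the Hdac proteins remove acetyl groups from histones and other proteins. In embryonic stem cells these enzymes help to hold the pluripotent state and to allow exit from it.

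Values are coverage, the authors' scaled read signal per exon window. Mettl3 itself had an input coverage of 3.14 and 3.38 in KO, against 4.79 and 4.67 in WT, and 12.9 in the first input. Its level was lower in KO by 0.43 on the log2 scale (limma, SE 0.072, adjusted p = 0.00259), so Mettl3 reads were still present in the KO libraries. Inputs correlated at 0.995 between the KO replicates and 0.997 between the WT replicates, against 0.983 to 0.986 between KO and WT (Pearson's r of log2 coverage across genes, which are not independent). The first input correlated at only 0.642 to 0.653 with the others and stands apart, so it entered no test. IP depth was uneven. Among the members' windows, 50.1% and 39.5% were empty in the KO IPs, 14.5% and 37.0% in the WT IPs and 3.08% in the first IP. The RPKM columns named KO input followed the KO IP tracks (r = 0.958 and 0.973) more closely than the KO input tracks (r = 0.695 and 0.711), so transcript levels below use input coverage. Pluripotency markers were abundant in every input, with a summed coverage of 2233 and 2090 in KO and 2759 and 2842 in WT. Of these 9 markers 1 rose (11.1%, Utf1) and 4 fell (44.4%, Nanog, Klf4, Tdgf1 and Dppa5a), against 13.0% and 13.6% of all genes. The median difference of the 9 was -0.20 on the log2 scale, against -0.005 for all genes. Summed trophectoderm markers were 20.9 and 21.9 in KO against 8.66 and 8.28 in WT, from Krt8 and Krt18, with Cdx2 and Hand1 near 0. Summed fibroblast markers were 6.04 and 6.23 in KO against 4.05 and 3.57 in WT, with Lum at 0 and Col3a1 and Dcn near 0 in all inputs. The higher sum came mainly from Acta2, at 3.23 and 3.78 in KO against 1.17 and 1.03 in WT. Thy1 went the other way, at 2.22 and 2.07 in KO against 2.75 and 2.43 in WT, and did not pass the test. Among the tested markers, 2 of 3 trophectoderm, 1 of 2 fibroblast (Acta2) and 1 of 3 neural markers (Nes) rose, and 1 neural marker (Sox1) fell. Nes met the coverage filter in KO alone and Sox1 in WT alone. Summed mesoderm and endoderm markers stayed under 1 in KO and WT. The part of these shifts in the results below was not tested.

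The m6A map of the first IP, which had the fewest empty windows, placed 78 regions on 35 of the 55 members, which is 63.6% of them. Of all expressed genes, 54.3% had a region. A region here is a run of at least 2 consecutive windows with a winscore of at least 2, where the winscore is a log2 enrichment made by the authors: IP over input, each first divided by its own median across the gene. All 14 Kdm genes had a region, as did 7 of 9 Setd genes and 8 of 10 Chd genes. Only 4 of 13 Smarc genes and 2 of 9 Hdac genes had one in this map. The members are long genes, with a median of 111 windows against 58 over all genes. Members with a region had a median of 139 windows and members without one 67 windows, so length and presence of a region went together. Family medians ran in a similar order, at 190.5 windows for Chd, 128 for Setd, 120 for Kdm, 96 for Smarc and 54 for Hdac. Transcript level did not run the same way: the median was 8.80 RPKM for members with a region and 11.5 RPKM for members without.

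Long internal exons, defined as internal exons of at least 8 windows, were the most frequent exon class of the members' regions. Such exons held 42 of the 78 regions (53.8%), against 23.6% of all 10181 regions. By family they held 16 of 20 Setd, 13 of 28 Kdm, 10 of 23 Chd, 2 of 5 Smarc and 1 of 2 Hdac regions. The terminal exon at the 3′ end held 21 regions (26.9%), against 51.9% over all regions. Another 10 regions (12.8%) lay in an outer exon of a gene whose strand was not in the table used, against 15.3% over all regions. Of these 10 regions, 8 lay in the longer outer exon of their gene. In genes with a strand, the 3′ exon was the longer outer exon in 89.7% (plus strand) and 90.0% (minus strand). The terminal shares leave regions without a strand out. The first exon held 3 regions (3.85%, against 4.67%), short internal exons held 2 (2.56%, against 2.08%) and single-exon genes held 0 (against 2.53%).

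Long internal exons were themselves more frequent in the members. They occurred in 26 of 55 members (47.3%), against 23.0% of expressed genes, and took 12.6% of the members' windows, against 8.68%. Of the members' 52 long internal exons, 33 (63.5%) held a region, against 51.0% over all genes. Of their 1080 short internal exons, 2 held a region, which is 0.185%, against 0.220% over all genes. In the terminal exons the regions began near the upstream edge of the exon: a median of 3 windows preceded the region, against 5 over all such regions. Of the 21 terminal regions 17 (81.0%) were centred nearer the 5′ than the 3′ end of the exon, against 71.5% over all terminal regions.

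**Figure D1:**
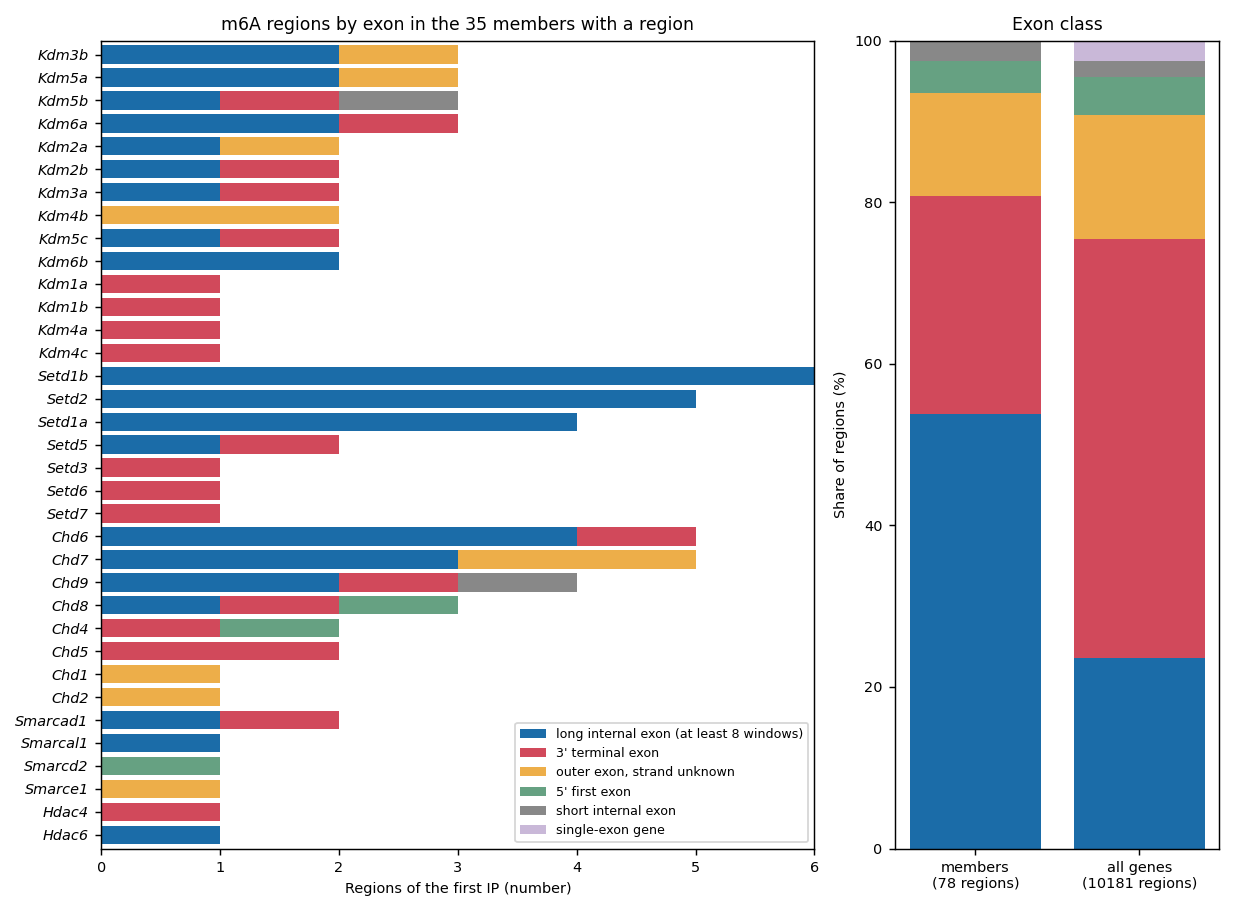
Left, the number of m6A regions of the first IP in each of the 35 members that have one, coloured by exon class. Right, the share of regions in each exon class (%) for the members (78 regions) and for all expressed genes (10181 regions). Long internal exons hold 53.8% of the members' regions and 23.6% of all regions.

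The histone methyltransferases Setd1a, Setd1b and Setd2 carried every one of their regions in long internal exons. Setd1b, like Setd1a a catalytic subunit of complexes that methylate histone H3 at promoters, had 6 regions, the most of any member. They were spread over exons 6, 7, 11 and 12 of 17 and were shallow, with first-IP winscores between 2.04 and 2.54. Their winscores in the 2 WT IPs lay between 1.90 and 3.19 and between 0.655 and 3.01, so some did not reach 2 in both. Setd1a had 4 regions in exons 7, 8 and 14 of 19, with winscores between 2.37 and 3.27. Setd2, the enzyme that methylates H3 along transcribed gene bodies, had 5 regions. Of these 3 lay in exon 3, an exon of 86 windows, and 1 each in exons 12 and 15 of 21. Their winscores in the WT IPs lay between 1.91 and 5.02 and between 1.08 and 4.64, so here too some regions did not reach 2 in both. The one with the highest first-IP winscore, at windows 79 to 82 of exon 3, had winscores of 4.70 and 4.65 in KO, 4.82 and 4.64 in WT and 3.81 in the first IP. The KO and WT values of this region overlapped. Setd3, an actin histidine methyltransferase, and Setd6 and Setd7, lysine methyltransferases that also act on proteins other than histones, each had 1 region, in the terminal exon. Setd5 had 1 region in exon 18 and 1 of 15 windows in its terminal exon 22. The terminal one had winscores of 5.33 and 4.90 in KO, 4.36 and 4.84 in WT and 4.88 in the first IP, with both KO values above both WT values. Setd4 and Setd8 (now Kmt5a, the enzyme that adds a single methyl group to histone H4) had none.

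Among the demethylases, Kdm2b had the highest first-IP region winscore of all members. This CpG-island binding protein, known for recruiting a Polycomb complex, had a region of 3 windows in its terminal exon with winscores of 6.57 and 6.62 in KO, 5.46 and 5.78 in WT and 5.46 in the first IP. Both KO values were above both WT values. IP coverage there was 675 and 628 in KO, 622 and 714 in WT and 245 in the first IP, so the KO and WT coverage overlapped. Kdm5b, a demethylase of H3 lysine at promoters, had 3 regions in exons 23, 26 and 27 of 27. Its terminal region had the largest KO and WT IP coverage of the members' regions, at 1002 and 719 in KO and 1456 and 1352 in WT, against 733 in the first IP. Both KO values were below both WT values here. Kdm6a and Kdm6b, which remove the Polycomb mark from H3, had 3 and 2 regions. Both regions of Kdm6b lay in exon 13, a long internal exon of 44 windows. Kdm2a, Kdm3a, Kdm3b, Kdm5a and Kdm5c each had 1 or 2 regions in long internal exons and 1 in an outer exon. A Kdm5a region of 15 windows began in the long internal exon 27 and ran on into the outer exon 28, and it is counted under exon 27, which held most of its windows. Kdm1a and Kdm1b, the amine-oxidase demethylases, and the Jumonji enzymes Kdm4a and Kdm4c each had 1 region, in the terminal exon, and Kdm4b had 2 in an outer exon.

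The chromodomain helicases held the longest regions. Chd6 had 5 regions. The longest of any member, 21 windows, lay in its terminal exon, with winscores of 4.79 and 4.43 in KO, 4.06 and 5.03 in WT and 3.89 in the first IP, and its other 4 regions lay in long internal exons. Chd2 had a region of 17 windows in an outer exon of 67 windows, with winscores of 4.95 and 5.10 in KO, 4.08 and 4.88 in WT and 3.91 in the first IP. The terminal region of Chd9 also covered 17 windows. Chd7, the helicase altered in CHARGE syndrome, had 5 regions, and the one of 11 windows in exon 38 had winscores of 6.12 and 4.65 in KO, 4.42 and 4.71 in WT and 5.39 in the first IP. KO and WT winscores overlapped in these regions of Chd6 and Chd7, while in Chd2 both KO values were above both WT values. Chd8 had a region in each of its first exon, a long internal exon and its terminal exon. Chd4, the ATPase of the NuRD complex, had short regions of 2 windows in its first and its terminal exon. Chd1l and Chd3 had none.

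The SWI/SNF and deacetylase genes were sparse in regions in the map of the first IP. Smarcad1, a remodeller outside SWI/SNF, had 2 regions, in exon 9 and at the very start of its terminal exon 24. Smarcal1, which remodels stalled replication forks, Smarce1 and Smarcd2, subunits of the SWI/SNF complexes, had 1 each. Hdac4 had its region in the terminal exon and Hdac6, the tubulin deacetylase, in exon 5. Of the 24 members with at least 10 RPKM in the WT inputs, 10 (41.7%) had no region, against 55.1% of all genes at that level. These were Hdac1, Hdac2 and Hdac3, the nuclear deacetylases, Setd8, and the SWI/SNF subunits Smarca4, Smarcb1, Smarcc1 and Smarcd1. The others were Smarca5, the ATPase of the ISWI complexes, and its single-exon pseudogene Smarca5-ps. Levels differed in the first input, where Smarca5-ps had 1.92 RPKM and Smarca4 57.9 RPKM, against 24.1 and 15.0 in WT. The absence depends on the library: in a map made from the mean of the WT IPs all 10 had at least 1 region, and 51 of the 55 members did. In that map 12 of 13 Smarc and 6 of 9 Hdac genes had a region, as did all Kdm, Setd and Chd genes. The share of all expressed genes with a region in that map is not given here, so these counts have no background.

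**Figure D2:**
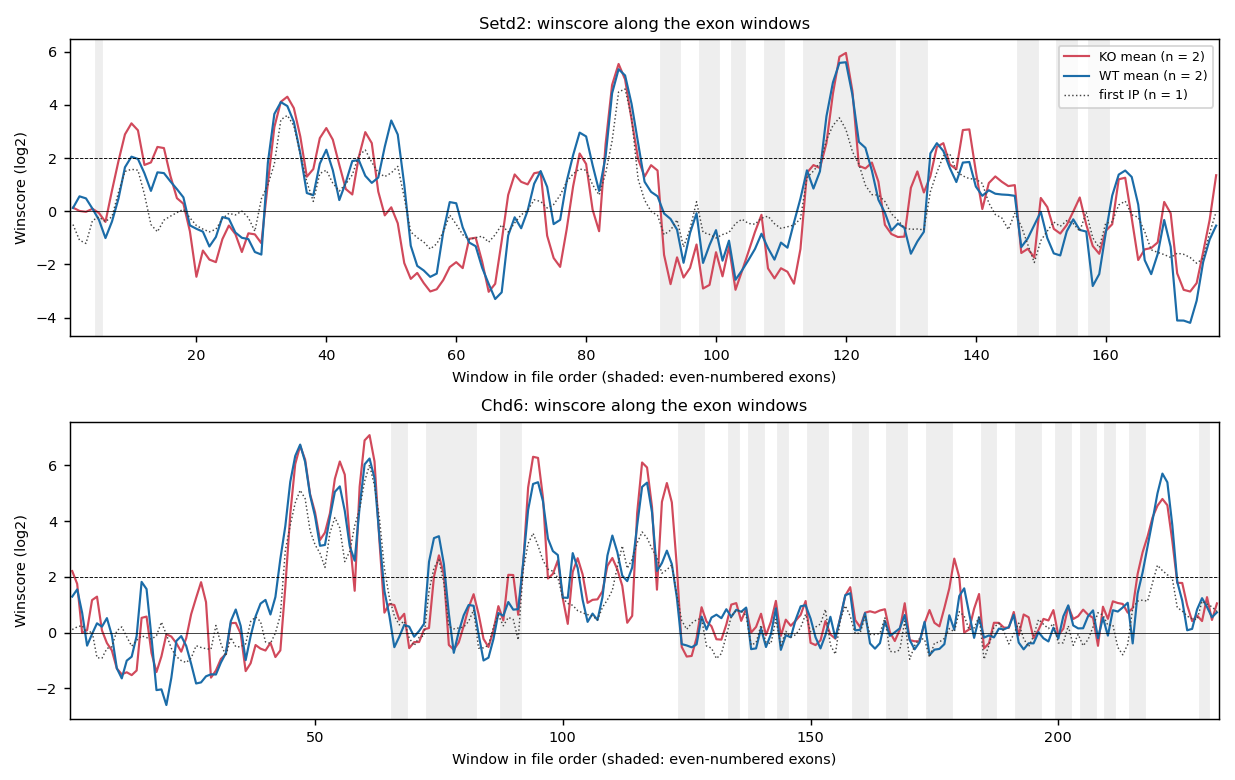
Winscore (log2) along the windows of Setd2 and Chd6 in the KO, WT and first IPs, in file order, as the mean of 2 KO and of 2 WT libraries and as the single first IP; grey bands mark even-numbered exons and the dashed line a winscore of 2. The stretches above 2 in the first IP sit in long exons (exon 3 of Setd2, exons 1 and 7 of Chd6), and the KO and WT lines rise there too.

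The comparison of KO with WT asked whether enrichment at the members' regions was lower in the Mettl3 KO cells. By the winscore it was not lower in most of them. The median winscore of the members' regions was 4.08 and 3.79 in the KO IPs, 3.68 and 4.08 in the WT IPs and 2.93 in the first IP. The KO and WT medians overlapped. Over all regions the medians were 3.60 and 3.39 in KO and 3.38 and 3.75 in WT. The median difference, KO minus WT, was 0.065 for the members and -0.079 for all regions. The mean was lower in KO in 34 of 78 regions (43.6%), against 54.3% of all regions. The sign of the members' median difference turned when 1 library pair was left out, to -0.085 without the first KO pair and -0.053 without the first WT pair.

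No member region passed the winscore test (limma, Benjamini-Hochberg adjusted p of at least 0.517, 0 of 78), and 0% of all regions did in either direction. At an unadjusted p under 0.05, 2 member regions were higher and 1 was lower in KO, against 3.19% higher and 5.08% lower over all regions. Without the second KO pair 4 member regions (5.13%) passed as lower and 1 (1.28%) as higher, against 7.89% and 5.09% of all regions. Without the first KO pair 0 passed as lower and 1 (1.28%) as higher, against 2.76% and 0.953% of all. Both KO values were below both WT values in 13 regions (16.7%), against 22.6% of all, and above them in 16 regions (20.5%), against 17.5%. Both KO IPs reached a winscore of 2 in 64 of 78 regions (82.1%), against 74.9% of all regions. Both WT IPs reached it in 72 of 78 (92.3%), against 87.0% of all regions. Of these 72 regions, 63 (87.5%) also reached it in both KO IPs, against 82.0% of all such regions.

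The winscore divides by the gene's own median IP coverage, and that median was 0 in 25 and 15 of the 55 members in the KO IPs, in 3 and 14 in the WT IPs and in 0 in the first IP. A ratio without that step was therefore taken: log2 of IP over input coverage in the region, less the library's median of the same ratio outside regions. On this scale the KO values were lower. The members' median was 3.60 and 3.91 in KO against 4.07 and 4.25 in WT, so both KO medians were below both WT medians. The median difference was -0.35 for the members and -0.45 for all 9603 regions tested. The mean was lower in KO in 57 of 77 regions (74.0%), against 77.8% of all. Both KO values were below both WT values in 32 regions (41.6%), against 46.3% of all, and above them in 6 (7.79%), against 7.32%.

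No single region passed this test either (limma, adjusted p of at least 0.271), in the members or, at 0% in both directions, in all regions. At an unadjusted p under 0.05, 10 member regions were lower and 1 was higher in KO, against 15.3% and 1.38% of all regions. The counts rest on single libraries: without the second KO pair 14 member regions passed as lower (18.2%, against 21.7% of all) and 1 as higher (1.30%, against 2.43%). Without the first KO pair 1 passed as lower (1.30%, against 7.31%) and 2 as higher (2.60%, against 0.708%). In such fits the lone KO library is assumed to vary as the WT libraries do. The share of the members' IP coverage that fell in their regions was 57.4% and 57.7% in KO, 61.5% and 62.3% in WT and 59.1% in the first IP. Their share of input coverage was 8.15% and 7.78% in KO, 7.96% and 8.04% in WT and 8.995% in the first input, and the regions took up 7.29% of the windows.

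By family, the ratio was lower in KO in 23 of 28 Kdm regions (median difference -0.53), 12 of 19 Setd regions (-0.25), 16 of 23 Chd regions (-0.22), all 5 Smarc regions (-0.80) and 1 of 2 Hdac regions. Over all regions the ratio was lower in KO in 77.8%, with a median difference of -0.45. Differences between families were not tested.

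**Figure D3:**
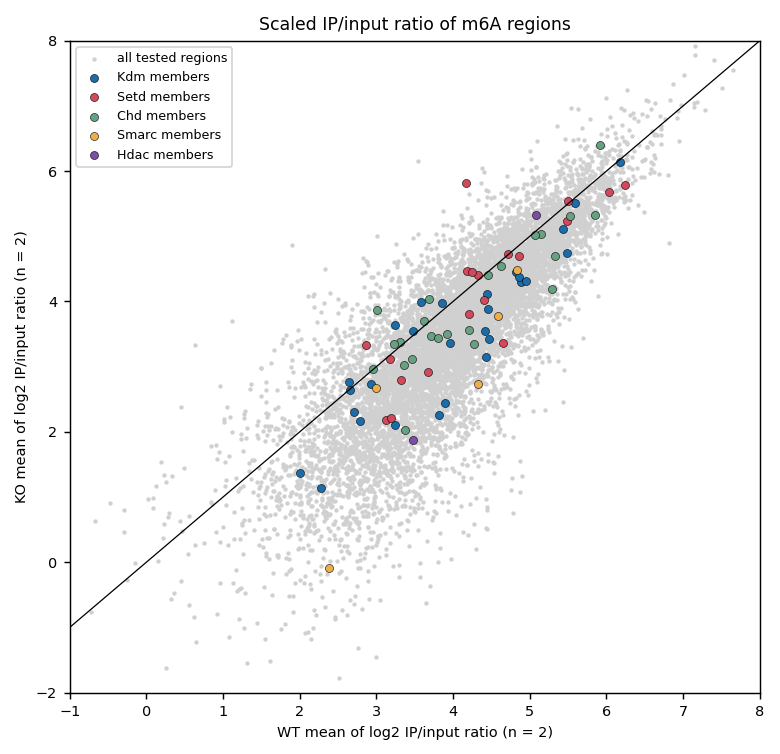
Log2 IP/input ratio of each region, relative to the library's median outside regions, as the mean of the 2 KO pairs (y axis) and of the 2 WT pairs (x axis), with members coloured by family over all regions in grey. More points lie below the line of equality, at lower KO ratios (57 of 77 member regions), and the second region of Setd1b exon 6 lies on the other side at 1.65 higher in KO.

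The lowest unadjusted p among regions lower in KO belonged to Smarcad1 exon 24. Its ratio was 2.82 and 2.66 in KO against 4.21 and 4.43 in WT, a difference of -1.58 (SE 0.36, limma adjusted p = 0.271), and the KO and WT values did not overlap. IP coverage there was 56.0 and 48.6 in KO against 136 and 149 in WT, while input coverage was 15.1 and 14.1 in KO against 13.5 and 14.1 in WT. The terminal region of Kdm1b had ratios of 1.89 and 2.63 in KO against 3.74 and 3.90 in WT (difference -1.56, limma adjusted p = 0.271), and its winscores were also lower, at 2.08 and 2.63 in KO against 3.80 and 4.42 in WT. Both regions lie in the first windows of the last exon.

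Kdm3b, which removes methyl groups from the heterochromatin mark of H3, had a pair of regions in exon 8 that differed in direction. At windows 20 to 24 the ratio was 2.52 and 2.38 in KO against 3.60 and 4.19 in WT (difference -1.44, limma adjusted p = 0.271). At windows 1 to 6 it was 3.78 and 3.50 in KO against 3.17 and 3.32 in WT (difference 0.39, limma adjusted p = 0.586). In each of these regions the KO and WT values did not overlap.

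The region of Kdm4c in its terminal exon had ratios of 2.78 and 3.52 in KO against 4.27 and 4.59 in WT (difference -1.28, limma adjusted p = 0.273). Its IP coverage was 42.3 and 49.6 in KO against 190 and 206 in WT. Input coverage there was also lower, at 11.6 and 7.46 in KO against 18.4 and 17.6 in WT. The winscores of this region overlapped, at 5.01 and 5.96 in KO and 5.04 and 6.68 in WT. Hdac6 exon 5 had ratios of 1.52 and 2.23 in KO against 3.53 and 3.44 in WT (difference -1.61, limma adjusted p = 0.273). Both genes thus had KO ratios below WT ratios without overlap. The largest difference of any member, -2.48, was that of Smarcd2 in its first exon. Its IP coverage was 0 and 4.80 in KO against 14.0 and 19.4 in WT, and its limma adjusted p was 0.306.

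Setd1b held regions whose differences had opposite signs, and neither passed the test. In exon 11 the ratio was 2.98 and 3.74 in KO against 4.57 and 4.75 in WT (difference -1.30, limma adjusted p = 0.271). At windows 17 and 18 of exon 6 it was 6.09 and 5.54 in KO against 4.07 and 4.25 in WT (difference 1.65, SE 0.30, limma adjusted p = 0.271). The winscore of the exon 6 region was 5.41 and 4.66 in KO, 2.80 and 2.49 in WT and 2.04 in the first IP, so the KO and WT values did not overlap on either scale. IP coverage there was 79.9 and 59.3 in KO, 28.6 and 32.9 in WT and 35.6 in the first IP, from an input coverage of 1.37 and 1.49 in KO, 2.44 and 2.84 in WT and 8.66 in the first input. The exon 6 region spans only 2 windows.

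Other regions with a higher KO mean had smaller differences. The first exon of Chd4 had ratios of 3.46 and 4.26 in KO against 2.82 and 3.20 in WT (difference 0.85, limma adjusted p = 0.360). The 11-window region of Chd7 exon 38 had 6.36 and 6.43 in KO against 5.70 and 6.12 in WT (difference 0.48, limma adjusted p = 0.377). In neither did the KO and WT values overlap. The terminal region of Hdac4 had 5.44 and 5.21 in KO against 4.98 and 5.17 in WT, with a difference of 0.25, and Kdm6a exon 16 had 3.61 and 4.36 in KO against 3.32 and 3.84 in WT, with a difference of 0.40 and overlapping values. Kdm2b exon 1, the region with the highest first-IP winscore, had ratios of 6.05 and 6.23 in KO against 6.02 and 6.33 in WT, a difference of -0.03.

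Transcript levels of the members were compared between the KO and WT inputs. Of 54 members tested (Hdac10 was too low), 4 rose, which is 7.41% against 13.0% of all 11211 genes tested, and 11 fell, which is 20.4% against 13.6% (limma on log2 of input coverage + 1, adjusted p under 0.05). At an unadjusted p under 0.05, 6 were higher and 15 lower, against 19.1% and 20.2% of all genes. The mean was lower in KO in 40 of 54 members (74.1%), against 51.0% of all genes. The median difference was -0.11 on the log2 scale, against -0.005 for all genes. Of the falls 2, Chd5 and Smarcd3, passed the coverage filter through the WT inputs alone, so their calls depend on that filter. In the 52 members that passed it in both groups, 4 rose (7.69%, against 12.5% of such genes) and 9 fell (17.3%, against 12.9%). Both KO inputs were below both WT inputs in 27 of 54 members (50.0%), against 34.0% of all genes, and above them in 10 (18.5%), against 31.7%. In bulk RNA, fewer cells of a type and less RNA per cell cannot be told apart. The lower levels rest in part on the second KO input: without it the median difference was -0.035, and without the first KO input it was -0.17. The number of falls was 17 without the first KO input (31.5%, against 15.1% of all genes) and 7 without the second WT input (13.0%, against 7.33%). With no filter on low coverage, 0 of 55 members and 15 of all 30419 genes passed in limma. At an unadjusted p under 0.05 in that fit, 5 members were higher and 16 lower, against 2334 and 2793 of all 30419 genes.

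**Figure D4:**
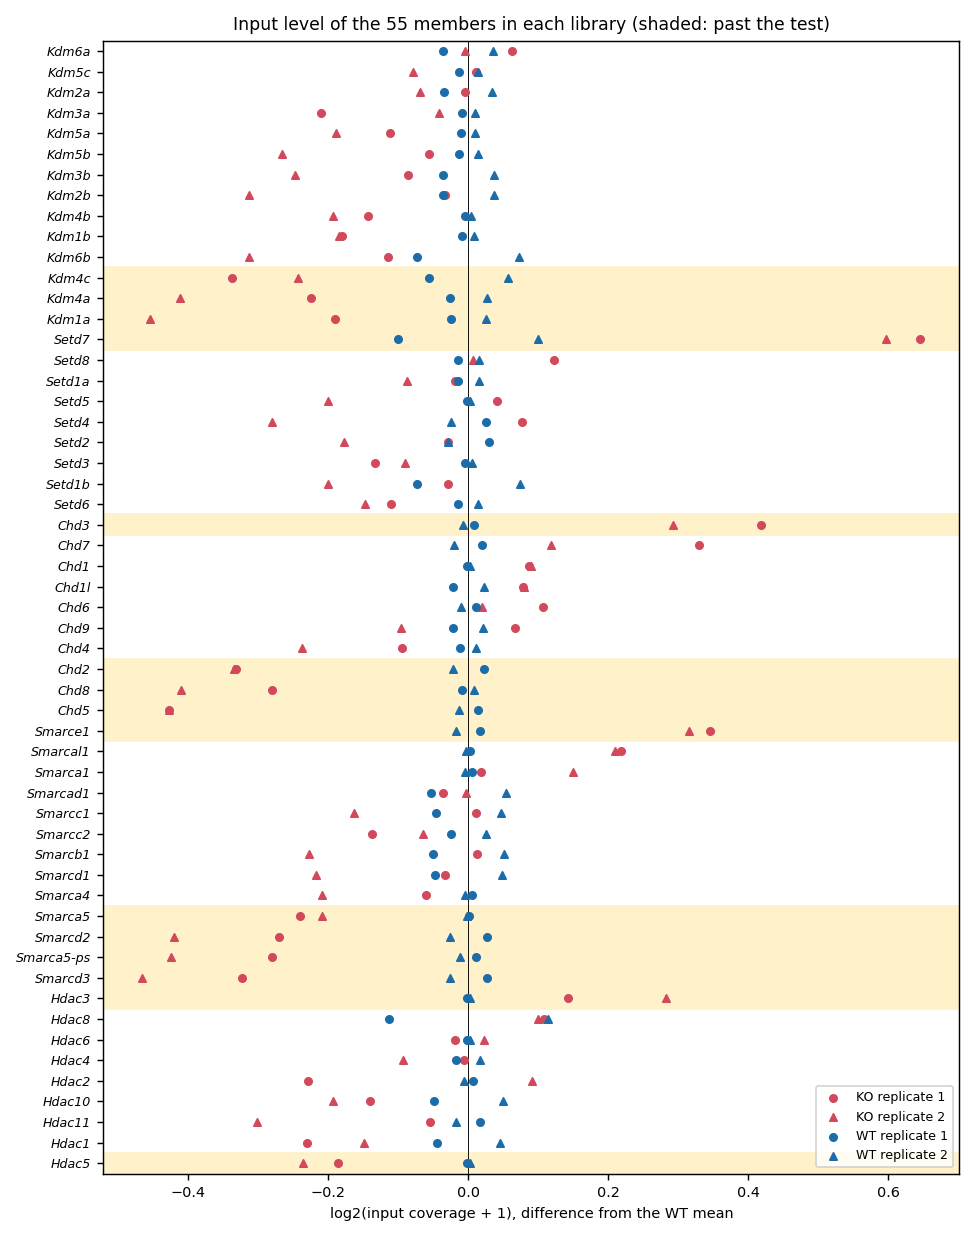
Log2(input coverage + 1) of each of the 55 members in each KO and WT input, as the difference from that gene's WT mean (x axis), 1 point per library, grouped by family; shaded rows passed the limma test. KO points lie left of 0 for most members, and those of Setd7 lie farthest to the right, with a mean difference of 0.62.

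Setd7 had the largest change of any member on the scale of log2(coverage + 1), which shrinks changes at low coverage. Its input coverage was 5.12 and 4.91 in KO, 2.65 and 3.19 in WT and 6.74 in the first input, and it rose by 0.62 on the log2 scale (SE 0.084, limma adjusted p = 0.000803). Both KO values were above both WT values. Adding 0.5 in place of 1 gave a change of 0.69 for Setd7 and of -0.59 for Chd5, against -0.43 for Chd5 with 1. No other Setd gene passed the test. Setd2 had 7.74 and 6.89 in KO against 8.10 and 7.74 in WT, and Setd8, the most abundant Setd gene per length at 22.2 RPKM in WT, had 21.8 and 20.02 in KO against 19.7 and 20.1 in WT. Setd1b, the least abundant at 2.05 RPKM, had 1.84 and 1.52 in KO against 1.75 and 2.05 in WT, and its values overlapped.

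The demethylases had lower KO means in 13 of 14 genes, against 51.0% of all genes. Of the 14, 3 fell and 0 rose, against 13.6% and 13.0% of all genes. Kdm1a, also called LSD1, was the most abundant of them per length, at 46.3 RPKM in WT. Its input coverage was 31.5 and 26.1 in KO, 35.5 and 36.8 in WT and 53.9 in the first input, and it fell by 0.32 on the log2 scale (SE 0.086, limma adjusted p = 0.0226). Kdm4a had 6.19 and 5.31 in KO, 7.25 and 7.56 in WT and 17.1 in the first input, a change of -0.32 (SE 0.079, limma adjusted p = 0.0168). Both enzymes had every KO value below every WT value.

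Kdm4c, like Kdm4a a demethylase of the heterochromatin mark of H3, had 9.55 and 10.3 in KO, 11.8 and 12.9 in WT and 17.6 in the first input (change -0.29, SE 0.071, limma adjusted p = 0.0158). These 3 calls were each lost when a single library was left out: Kdm1a and Kdm4a without the second KO input, Kdm4a also without the second WT input, and Kdm4c without the second WT input. The only demethylase with a higher KO mean was Kdm6a, at 7.005 and 6.64 in KO against 6.48 and 6.86 in WT, and its values overlapped. Kdm4b, the least abundant at 2.45 RPKM, had 1.76 and 1.66 in KO against 2.04 and 2.05 in WT and did not pass the test.

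Of the 10 Chd genes 3 fell and 1 rose, against 13.6% and 13.0% of all genes. Chd8, a helicase that binds beta-catenin, had 5.47 and 4.92 in KO, 6.82 and 6.91 in WT and 15.9 in the first input (change -0.35, SE 0.072, limma adjusted p = 0.00791). Chd2 had 3.60 and 3.59 in KO, 4.88 and 4.70 in WT and 9.13 in the first input (change -0.33, SE 0.070, limma adjusted p = 0.00787), and its call was lost without the first WT input. Both genes had KO values below WT values without overlap.

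Chd5, a NuRD-type helicase known mainly from neurons, had 0.559 and 0.560 in KO, 1.12 and 1.08 in WT and 2.37 in the first input (change -0.43, SE 0.083, limma adjusted p = 0.00562). Only its WT values met the coverage filter. Chd3, its close relative, rose: it had 2.56 and 2.27 in KO, 1.68 and 1.65 in WT and 3.78 in the first input (change 0.35, SE 0.081, limma adjusted p = 0.0116). Chd4, the abundant member of this subfamily at 40.6 RPKM in WT, had 30.4 and 27.4 in KO against 32.2 and 32.8 in WT and did not pass the test. The difference between Chd3 and Chd5 in their response was not tested. The region-rich Chd6 had 3.40 and 3.14 in KO against 3.11 and 3.05 in WT, Chd7 had 3.02 and 2.47 in KO against 2.24 and 2.15 in WT, and Chd9 had 5.67 and 4.96 in KO against 5.28 and 5.47 in WT. None of these passed the test.

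Of the 13 Smarc genes 4 fell and 1 rose, against 13.6% and 13.0% of all genes. Smarce1, a DNA-binding subunit of the SWI/SNF complexes, had 12.8 and 12.5 in KO, 10.0 and 9.75 in WT and 5.79 in the first input (change 0.33, SE 0.063, limma adjusted p = 0.00523). Both KO values were above both WT values. Smarcd2, one of the alternative subunits of the same complexes, had 9.09 and 8.10 in KO, 11.4 and 11.0 in WT and 23.3 in the first input (change -0.35, SE 0.073, limma adjusted p = 0.00802). Smarcd3 had 0.665 and 0.508 in KO, 1.12 and 1.05 in WT and 3.01 in the first input (change -0.39, SE 0.090, limma adjusted p = 0.0118), and only its WT values met the coverage filter. The other alternative subunit, Smarcd1, had 16.5 and 14.4 in KO against 16.3 and 17.5 in WT, with overlapping values.

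Smarca5 had 28.0 and 28.6 in KO, 33.3 and 33.2 in WT and 11.3 in the first input (change -0.22, SE 0.061, limma adjusted p = 0.0243), and its call was lost without the first KO input or either WT input. Smarca5-ps had 19.4 and 17.5 in KO, 24.0 and 23.6 in WT and 1.90 in the first input (change -0.35, SE 0.069, limma adjusted p = 0.00568). Reads of Smarca5 and this copy may be shared, so both values are uncertain. The headers of the first pair's tracks name unique reads and those of the other pairs do not, and both genes were lowest in the first input. The catalytic subunit Smarca4 had 11.0 and 9.86 in KO against 11.6 and 11.5 in WT and did not pass the test.

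Of the 8 deacetylases tested 1 rose and 1 fell, against 13.0% and 13.6% of all genes, and both calls were fragile. Hdac3, the enzyme of the nuclear receptor co-repressor complexes, had 14.3 and 15.8 in KO, 12.8 and 12.8 in WT and 17.4 in the first input (change 0.21, SE 0.069, limma adjusted p = 0.0474). Hdac5, a deacetylase that shuttles between nucleus and cytoplasm, had 4.21 and 4.04 in KO, 4.92 and 4.94 in WT and 17.3 in the first input (change -0.21, SE 0.069, limma adjusted p = 0.0478). Each call was lost without the second KO input, and without either WT input. That of Hdac3 was also lost when each input was centred on its median (limma adjusted p = 0.0512). Hdac1, the most abundant member per length at 62.9 RPKM in WT, had 41.0 and 43.4 in KO, 46.8 and 49.8 in WT and 12.0 in the first input, and Hdac2 had 35.4 and 44.4 in KO against 41.8 and 41.4 in WT. Neither passed the test. Hdac10, the least abundant, had 0.709 and 0.648 in KO against 0.822 and 0.949 in WT.

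Of the 15 calls, 8 (3 rises and 5 falls) held when each KO or WT replicate was left out in turn. They were Setd7, Smarce1 and Chd3 among the rises and Chd5, Chd8, Smarcd2, Smarcd3 and Smarca5-ps among the falls. Of these falls Chd5 and Smarcd3 carry the limit of the coverage filter and Smarca5-ps that of shared reads, which leaves Chd8 and Smarcd2 with neither.

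Members with and without a region in the first IP were also set side by side. Of 35 members with a region 7 fell (20%) and 2 rose (5.71%), with a median change of -0.12. Of 19 tested members without a region 4 fell (21.1%) and 2 rose (10.5%), with a median change of -0.10. Over all genes, 13.3% fell and 11.0% rose among those with a region, and 14.3% fell and 13.9% rose among those without. Setd7, whose transcript rose, had a ratio of 3.68 and 4.36 in KO against 4.87 and 3.93 in WT in its terminal region, with overlapping values.

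A list of 96 other genes of related complexes and reactions, chosen by their known roles, gave 4 that rose and 19 that fell among 91 tested, which is 4.40% and 20.9%, against 13.0% and 13.6% of all genes. The median change was -0.053, against -0.005. Of 92 expressed, 66 had a region (71.7%, against 54.3%). The partners of the deacetylases in the NuRD, Sin3 and CoREST complexes, with the sirtuins, held 9 of the falls (36% of 25 tested) and 1 rise (4%). Among these falls was Rbbp4, the histone chaperone shared by several of these complexes, which had 48.7 and 48.3 in KO against 62.2 and 64.6 in WT (change -0.38, limma adjusted p = 0.00234). Others were Mbd2, the methyl-CpG binding subunit of NuRD, at -0.46 (limma adjusted p = 0.00494), and the sirtuin deacetylases Sirt1, at -0.33 (limma adjusted p = 0.0102), and Sirt3, at -0.31 (limma adjusted p = 0.0118).

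Of 29 further histone methyltransferase genes and subunits of their complexes, 5 fell (17.2%) and 0 rose. The falls were the enzyme genes Mll3 (now Kmt2c), Ehmt2, Suv420h2 and Setdb2 and the complex subunit Ash2l. Mll3 changed by -0.33 (limma adjusted p = 0.0126) and had 9 regions. Among 8 demethylases and relatives without a Kdm name 2 rose (25.0%) and 2 fell (25.0%), one of the falls being Jarid2, which lacks demethylase activity. Of 14 further SWI/SNF subunits 1 rose (7.14%) and 2 fell (14.3%), one of the falls being Pbrm1 at -0.31 (limma adjusted p = 0.0106). Of 15 further remodellers and their partners, mainly of the ISWI and INO80 types, 1 fell (6.67%). That gene was Ercc6, a repair factor outside these types, at -0.33 (limma adjusted p = 0.0126).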

How the data were processed

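Members and gene lists were chosen with earlier results of these data known. Named in full were, in each direction, members past the input test (up to 8), each family's most and least abundant member, members with at least 4 regions or the highest first-IP winscores, and in each direction the 6 regions with the smallest ratio p, 1 per gene. Hdac5, the Smarcd2 region and regions given to show a gene's layout were added after their values were seen. Reads were aligned with TopHat 1.1.3 to mm9, per the submitters' processing notes. The deposited window files hold coverage, a scaled signal whose factor is not given in the sources used here, and the authors' log2 winscore, per the file headers. Recomputing that score from coverage + 1 in 1510223 windows gave it to within 5e-14. The RPKM values per gene are as deposited. The files give no coordinates or window width, so regions are named by gene, exon and window in genome order. Strand came from a RefSeq table of GRCm38.p6.

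Tests were limma 3.58.1 in R 4.3.3 (lmFit, eBayes with trend, Benjamini-Hochberg) on log2(mean input coverage + 1) for 11211 genes with coverage of at least 1 in 2 inputs, on mean region winscore for 10181 regions, and on the region ratio for 9603 regions with input coverage of at least 1. On simulated data the input test recovered 88% of changes of 1 and 97% of changes of 2 on the log2 scale. The members' called changes were smaller, at 0.62 or less in size, so recovery at their size is unknown. With 200 regions changed by 1 or 2, both region tests recovered 0%. With 5090 regions lowered by 2 or 4, the winscore test recovered 64.2% and 90.3%. With 4800 regions lowered in the same way, the ratio test recovered 79.1% and 93.5%. A region that did not pass is thus not shown to be the same in KO and WT. Depth in reads is unknown, and the number of libraries limits the precision. Alternatives were another region threshold, maps from other IPs, other filters, RPKM, centring, a replicate block and leaving out each library.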

Additional observations from a re-analysis of the deposited data

How the results depend on the processing

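The members' input calls (15: 4 rose, 11 fell) became 0 with no filter on low coverage, where 15 of all 30419 genes passed. They became 9 (5.71% rose and 20% fell, against 15.9% and 14.7% of all genes) with a minimum of 5. They became 13 (7.69% rose and 17.3% fell, against 12.8% and 13.2%) with a mean of at least 1 over the 4 inputs, a filter added after seeing the data. They became 41 (45.5% rose and 29.1% fell, against 40.9% and 24.1% of all genes) with the deposited RPKM, where 47.3% of members had a lower KO mean. With RPKM the direction was reversed for Chd2 (0.97), Chd8 (1.33) and Hdac3 (-0.56); the KO columns there follow the IP tracks. When each replicate was left out, the members' median input difference ranged between -0.17 and -0.035, against -0.024 and 0.012 for all genes. Their median winscore difference ranged between -0.085 and 0.242, against -0.268 and 0.098 for all regions. Their median ratio difference ranged between -0.46 and -0.23, against -0.53 and -0.38 for all regions. With a replicate block the members' input calls were 13, losing Hdac3 and Hdac5. Of these 3 rose (5.56%, against 11.9% of all genes) and 10 fell (18.5%, against 12.5%). The members' winscore and ratio calls stayed at 0, against 0.128% higher and 0.511% lower of all regions by winscore and 0% by ratio. The replicate numbers were not shown to pair the libraries (correlation of same-numbered deviations -0.027 for input). A region threshold of 3 left 28.3% of the members' regions with a lower KO winscore. At the threshold used for the main results it was 43.6% of the members' regions. The share of all regions at a threshold of 3 is not given here, so this drop has no background. The members had 165 regions at a threshold of 1, 189 in a map from the WT IPs and 268 in one from the KO IPs, where 53 members had a region. The counts over all genes in these maps are not given here. The cause of these shifts was not tested. Empty windows limit what the KO IPs can show.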
